A study of Mus musculus with 12 samples.

Results

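The complement components and receptors described here are 9 genes of bone marrow-derived macrophages (BMDMs): C1qa, C1qb, C1qc, C2, C3, Cfb, Cfp, C3ar1 and C5ar1. They were chosen by name, as 9 of the 43453 genes in the deposited table, and where a gene had several transcript rows the row with the highest total was taken. BMDMs of C57BL/6 mice were grown from bone marrow in M-CSF (50 ng/mL, 7 days) and sequenced as 3 libraries in each of 4 groups, 12 libraries in all. The groups, as headed, were tlr4f/f without LPS (LPS- tlr4f/f) or with it (LPS+ tlr4f/f), and tlr4f/f-lysM-cre without LPS (LPS- tlr4f/f-lysM-cre) or with it (LPS+ tlr4f/f-lysM-cre). LPS+ means 1 µg/mL of lipopolysaccharide for 6 h and LPS- means no treatment. All mice carried floxed tlr4, the gene of the LPS receptor, and in tlr4f/f-lysM-cre mice Cre driven by the lysozyme M promoter deletes it in macrophages and neutrophils, so the deletion is a myeloid and not a germline one. The age of the mice whose marrow was used and whether the 3 libraries of a group came from separate mice are not given in the sources used here, so p-values measure the spread between libraries, which may be technical.

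Complement is a cascade of plasma proteins that marks particles for uptake and calls in leukocytes. C1q, built of the chains encoded by C1qa, C1qb and C1qc, starts the classical pathway by binding antibody or apoptotic cells, and C2 supplies the protease of its C3 convertase. C3 is the component on which all the pathways converge, factor B (Cfb) supplies the protease of the alternative pathway convertase, and properdin (Cfp) stabilises that convertase. The fragments C3a and C5a act on the receptors C3ar1 and C5ar1. Most complement proteins in plasma come from the liver, and macrophages are known as a main source of C1q and properdin in tissue.

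The heading LPS- tlr4f/f-lysM-cre may be exchanged with the heading LPS+ tlr4f/f. Both readings of the comparisons that the exchange renames are given here and, for C3, beside its values. Tlr4, the targeted gene, had 4486, 9136 and 6449 counts under LPS- tlr4f/f, 4367, 3041 and 3739 under LPS- tlr4f/f-lysM-cre, 1484, 1086 and 1412 under LPS+ tlr4f/f, and 1191, 891 and 1117 under LPS+ tlr4f/f-lysM-cre. Lyz2, the gene that carries Cre in this strain, had 383956 to 1244818 counts under LPS- tlr4f/f, 221787 to 303431 under LPS- tlr4f/f-lysM-cre, 494 to 623 under LPS+ tlr4f/f, and 2127 to 3272 under LPS+ tlr4f/f-lysM-cre. The LPS-inducible cytokine gene Il1b had 4 to 405, 52432 to 306385, 128 to 195 and 97411 to 113136 counts in the same order. Il1b was thus high in a group headed LPS- and low in a group headed LPS+. The exchange renames comparisons and changes no value: a difference read as genotype under one set of headings is read as LPS under the other. LPS+ tlr4f/f-lysM-cre against LPS+ tlr4f/f is the genotype difference under LPS as headed, and the LPS response of tlr4f/f-lysM-cre when exchanged. LPS+ tlr4f/f-lysM-cre against LPS- tlr4f/f-lysM-cre has these readings swapped. LPS- tlr4f/f-lysM-cre against LPS- tlr4f/f is the genotype difference without LPS as headed, and the LPS response of tlr4f/f when exchanged. LPS+ tlr4f/f against LPS- tlr4f/f has those swapped.

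The libraries held between 33577440 and 56445992 counts over genes. The spread between replicates, as edgeR's common biological coefficient of variation, came to 37.1% under LPS- tlr4f/f, 34.8% under LPS- tlr4f/f-lysM-cre, 8.55% under LPS+ tlr4f/f and 8.75% under LPS+ tlr4f/f-lysM-cre. Replicate 3 of LPS- tlr4f/f stood apart, with 4 counts of Il1b and 65 of Cfb. All 7 macrophage markers checked were present in each library, with a summed level of 4349 to 10337 TMM-normalised counts scaled to library size (CPM). That sum was 5420 to 6581 under LPS- tlr4f/f and 8885 to 10337 under LPS- tlr4f/f-lysM-cre. Under LPS+ tlr4f/f it was 4349 to 4579, and under LPS+ tlr4f/f-lysM-cre 6413 to 6563. Its part in the levels of the complement genes was not tested. The neutrophil gene Ly6g reached at most 1 count, but other neutrophil markers reached more, with up to 4028 counts of S100a8, 1057 of S100a9 and 694 of Ngp. The 10 markers of fibroblasts and stroma summed to 13.3 to 782 CPM under LPS- tlr4f/f, 208 to 1772 under LPS- tlr4f/f-lysM-cre, 26.4 to 33.8 under LPS+ tlr4f/f and 52.8 to 69.1 under LPS+ tlr4f/f-lysM-cre, and the 8 neutrophil markers to 0.637 to 13.7, 14.9 to 192, 4.61 to 6.81 and 5.57 to 7.62 CPM in the same order. Fewer cells of a type and less RNA per cell cannot be told apart in such bulk samples.

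Promoter sequence from RefSeq (GRCm38.p6, the build mm10 of the files) was found for 6 of the 9 genes. The promoters of C3, whose 4 column groups did not overlap, and of C1qb and C1qc, which varied together between libraries, are shown over the 250 bases before the RefSeq transcript start, 5′ to 3′ on the strand of the gene. Capitals mark matches, on either strand, to one of the motifs searched.
C3 (chr17:57228137-57228386, minus strand): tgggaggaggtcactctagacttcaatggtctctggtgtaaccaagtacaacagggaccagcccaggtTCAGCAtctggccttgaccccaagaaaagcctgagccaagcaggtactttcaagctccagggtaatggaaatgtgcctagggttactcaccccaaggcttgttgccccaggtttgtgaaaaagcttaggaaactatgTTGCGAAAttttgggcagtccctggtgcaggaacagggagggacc
C1qb (chr4:136886201-136886450, minus strand): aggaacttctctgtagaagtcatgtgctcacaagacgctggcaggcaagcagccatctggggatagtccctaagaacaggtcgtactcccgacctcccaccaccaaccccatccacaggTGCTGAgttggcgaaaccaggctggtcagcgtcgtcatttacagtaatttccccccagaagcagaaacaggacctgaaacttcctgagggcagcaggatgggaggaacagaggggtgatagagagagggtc
C1qc (chr4:136892915-136893164, minus strand): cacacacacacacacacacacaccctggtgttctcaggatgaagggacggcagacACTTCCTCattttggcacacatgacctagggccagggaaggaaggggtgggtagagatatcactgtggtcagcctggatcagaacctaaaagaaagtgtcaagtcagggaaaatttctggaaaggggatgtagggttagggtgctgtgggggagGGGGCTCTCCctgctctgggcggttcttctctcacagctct
The motifs searched over 250 bases before to 50 after the start, on both strands, were kB, the interferon-stimulated response element (GAAANNGAAA), the gamma-activated site (TTCNNNGAA), the C/EBP site (TTGCNNAA), the PU.1 site (GAGGAAGT) and the Maf recognition core (TGCTGA). The C3 promoter held a C/EBP match at -45 to -38, counted from the transcript start, and a Maf core on the other strand at -182 to -177. The C1qc promoter held a kB match at -41 to -32 and a PU.1 match on the other strand at -195 to -188, and the C1qb promoter a Maf core at -131 to -126. No capitals overlap another match. Of all mouse promoters in the RefSeq set, 10.8% held a C/EBP match, 19.5% a Maf core, 4.51% a kB match, 3.20% a PU.1 match, 3.44% the interferon-stimulated response element and 8.30% the gamma-activated site. C3ar1 and C5ar1 each held a Maf core, at -144 to -139 on the other strand and at -17 to -12, and Cfp none of the 6 motifs. The gene spans given in this text are from the GENCODE annotation and can differ from the RefSeq starts. The span of C1qc reaches 136893065 and takes in the kB match. That of C5ar1 reaches 16259540 and takes in its Maf core. The motif matches describe letters and were not tested for binding.

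The C1q chains are encoded side by side on chromosome 4 (mm10: C1qb 136880129 to 136886187, C1qc 136889804 to 136893065, C1qa 136895917 to 136898803, all on the minus strand). They varied widely within groups. In replicates 1, 2 and 3, the level of C1qa was 5.06, 699.9 and 149 CPM under LPS- tlr4f/f, 5.88, 888 and 825 under LPS- tlr4f/f-lysM-cre, 166, 173 and 37.6 under LPS+ tlr4f/f, and 170.4, 167 and 42.7 under LPS+ tlr4f/f-lysM-cre. The level of C1qb was 9.90, 1350.0 and 445 CPM, 11.8, 1714 and 1121, 601, 628 and 214, and 591, 585 and 216 in the same order. That of C1qc was 28.2, 1118 and 459 CPM, 21.7, 1314 and 953, 402, 422 and 144, and 374, 364 and 136. Replicate 1 of both groups headed LPS- was low for the 3 chains together, and replicate 3 of both groups headed LPS+ was lower than the other two, so that the groups overlapped in each comparison.

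In replicate 1 of LPS- tlr4f/f and of LPS- tlr4f/f-lysM-cre, C1qa had 295 and 219 counts and C1qb 577 and 439. The SD of log2 CPM of C1qa was 3.63 under LPS- tlr4f/f and 4.14 under LPS- tlr4f/f-lysM-cre, where the medians over 15792 genes were 0.33 and 0.37. It was 1.25 under LPS+ tlr4f/f against 1.14 under LPS+ tlr4f/f-lysM-cre, beside medians of 0.12 and 0.13. C1qa ranked 9 of 15792 genes by spread under LPS- tlr4f/f-lysM-cre, and in no group were more than 4.75% of genes wider than any of the 3 chains. Both libraries with the lowest C1q had stromal marker sums of 782 and 1142 CPM. The sum was highest, at 1772 CPM, in replicate 3 of LPS- tlr4f/f-lysM-cre, where C1qa was at 825 CPM. The part of stromal cells in the C1q levels was not tested.

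**Figure D1:**
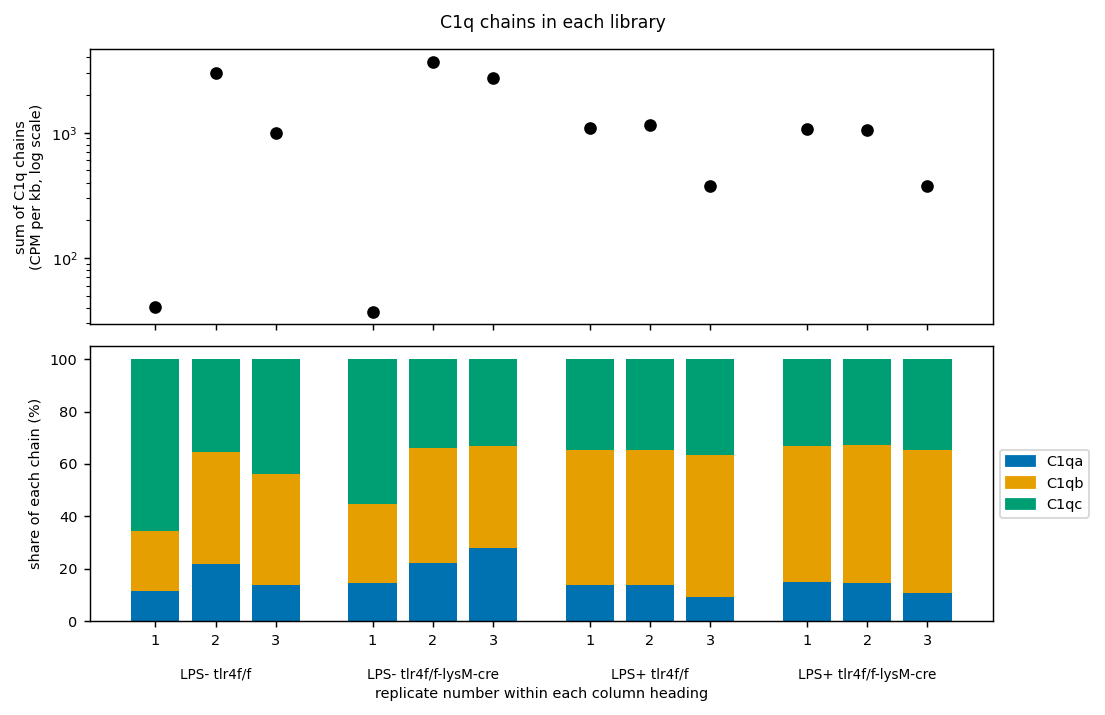
The upper panel plots the summed level of C1qa, C1qb and C1qc in CPM per kb of transcript on a log scale, and the lower panel the share of each chain in that sum in percent, for replicates 1 to 3 under each column heading. The sum was 40.7 and 37.1 CPM per kb in replicate 1 of LPS- tlr4f/f and of LPS- tlr4f/f-lysM-cre, and at least 372 in the other 10 libraries.

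Per kb of transcript, C1qb was the leading chain in 9 libraries, with 38.8% to 54.8% of the sum of the 3 chains. C1qc led in the other 3, with 65.6% and 55.5% in replicate 1 of LPS- tlr4f/f and of LPS- tlr4f/f-lysM-cre and 43.9% in replicate 3 of LPS- tlr4f/f. The share of C1qa ran from 9.31% to 28.0%. The shares were near each other under both LPS+ headings, where C1qb held 51.4% to 54.8% while the sum ran from 372 to 1151 CPM per kb.

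None of the C1q chains was called between groups, a call here being a fold above 2 with a Benjamini-Hochberg adjusted p below 0.01 in edgeR's quasi-likelihood test. In LPS+ tlr4f/f-lysM-cre against LPS+ tlr4f/f the log2 fold change was 0.025 (SE 0.86) for C1qa, -0.043 (SE 0.63) for C1qb and -0.14 (SE 0.63) for C1qc, with adjusted p of 0.982, 0.960 and 0.871. For LPS+ tlr4f/f-lysM-cre against LPS- tlr4f/f-lysM-cre the values were -2.16 (SE 1.38), -1.01 (SE 1.28) and -1.37 (SE 1.15). With the standard errors of these fits, which did not pair libraries by replicate number, differences of 2-fold in C1q were not detectable. The values do not show that the groups are alike. Same-numbered libraries under the LPS+ headings lay close. In replicates 1, 2 and 3 the chains summed to 1100, 1151 and 373 CPM per kb under LPS+ tlr4f/f. Under LPS+ tlr4f/f-lysM-cre the sums were 1069, 1051 and 372.

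C3, on chromosome 17 (mm10: 57203970 to 57228136, minus strand), was the member with the clearest separation of the groups. Its level was 338, 162 and 141 CPM under LPS- tlr4f/f, 4012, 3809 and 1465 under LPS- tlr4f/f-lysM-cre, 31.3, 28.7 and 26.6 under LPS+ tlr4f/f, and 698, 612 and 549.8 under LPS+ tlr4f/f-lysM-cre. The 4 groups did not overlap: LPS- tlr4f/f-lysM-cre was highest, followed by LPS+ tlr4f/f-lysM-cre, then LPS- tlr4f/f, with LPS+ tlr4f/f lowest. As means, these were 3095 ± 1415, 620.1 ± 74.6, 214 ± 108 and 28.9 ± 2.34 CPM (SD, n = 3).

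C3 rose in LPS+ tlr4f/f-lysM-cre against LPS+ tlr4f/f, by a log2 fold change of 4.43 (SE 0.10, edgeR adjusted p = 8.93e-11), or 21.6-fold. As headed this is the genotype difference under LPS, and with the headings exchanged it is the LPS response of tlr4f/f-lysM-cre cells. Against LPS- tlr4f/f-lysM-cre, C3 in LPS+ tlr4f/f-lysM-cre fell by 2.30 on the log2 scale (SE 0.37, edgeR adjusted p = 0.00777), which is the LPS response of tlr4f/f-lysM-cre as headed and the genotype difference under LPS with the headings exchanged. That call was lost without replicate 1 or 2 of LPS- tlr4f/f-lysM-cre (edgeR adjusted p = 0.0150 and 0.0156) and without replicate 1, 2 or 3 of LPS+ tlr4f/f-lysM-cre (0.0444, 0.0491 and 0.0520), where only 4, 7 and 15 of all genes were called, and it was also lost when the transcript rows were summed (0.0110) and with the replicate number as a block (0.0145).

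C3 rose in LPS- tlr4f/f-lysM-cre against LPS- tlr4f/f, by 3.84 on the log2 scale (SE 0.56, edgeR adjusted p = 0.00331), or 14.3-fold, a genotype difference without LPS as headed and the LPS response of tlr4f/f cells with the headings exchanged. Without replicate 2 or 3 of LPS- tlr4f/f the adjusted p was 0.0166 and 0.0120, and without replicate 1 or 2 of LPS- tlr4f/f-lysM-cre it was 0.0121 and 0.0130, so the call was lost while the log2 fold change stayed between 3.60 and 3.68. In LPS+ tlr4f/f against LPS- tlr4f/f the log2 fold change of C3 was -2.87 (SE 0.37, edgeR adjusted p = 0.0442), which missed the threshold. It is the LPS response of tlr4f/f as headed, and the genotype difference without LPS when exchanged. DESeq2 and limma voom called it, with adjusted p of 1.08e-13 and 0.00592.

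LPS+ tlr4f/f-lysM-cre keeps its heading in both readings, as does LPS- tlr4f/f, and the 2 groups differ in genotype and LPS together. C3 had a log2 fold change of 1.54 between them (SE 0.35, edgeR adjusted p = 0.0158), not called. Without replicate 1 of LPS- tlr4f/f, in which C3 and the stromal markers were highest of that group, it was called, at 2.04 (SE 0.16, adjusted p = 0.000877). The stromal marker sum was also highest in the group with the highest C3. Within that group, LPS- tlr4f/f-lysM-cre, the sum was 1142, 208 and 1772 CPM in replicates 1, 2 and 3. C3 was highest there in replicate 1, at 4012 CPM, and lowest in replicate 3, at 1465 CPM. Between the groups headed LPS+, C3 differed 21.6-fold. There the stromal sum was 26.4 to 33.8 CPM under LPS+ tlr4f/f and 52.8 to 69.1 under LPS+ tlr4f/f-lysM-cre, without overlap. The part of stromal cells in the C3 differences was not tested.

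Cfb and C2 lie next to each other on chromosome 17 (mm10: Cfb 34856374 to 34862518, C2 34862604 to 34898265, minus strand). A read-through gene model, Gm20547, covers 6107 bases of Cfb and 19439 of C2. It has no row in the deposited table, and whether it took reads from either gene was not tested. The level of Cfb was 80.8, 126 and 1.22 CPM under LPS- tlr4f/f, 745, 1346 and 1056 under LPS- tlr4f/f-lysM-cre, 2.88, 3.07 and 2.50 under LPS+ tlr4f/f, and 104, 123 and 127 under LPS+ tlr4f/f-lysM-cre. LPS- tlr4f/f-lysM-cre was highest without overlap. LPS- tlr4f/f spanned a 104-fold range that took in LPS+ tlr4f/f and overlapped with LPS+ tlr4f/f-lysM-cre.

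Cfb rose in LPS+ tlr4f/f-lysM-cre against LPS+ tlr4f/f, by 5.41 on the log2 scale (SE 0.11, edgeR adjusted p = 8.33e-12), or 42.5-fold. It fell in LPS+ tlr4f/f-lysM-cre against LPS- tlr4f/f-lysM-cre by 3.14 (SE 0.24, edgeR adjusted p = 0.00110), and the adjusted p was 0.0152, 0.0156 and 0.0141 without replicate 1, 2 or 3 of LPS+ tlr4f/f-lysM-cre and 0.0405 with all 12 libraries in a single fit. Its values against LPS- tlr4f/f turned on replicate 3 of that group. The log2 fold change of LPS- tlr4f/f-lysM-cre over LPS- tlr4f/f was 3.90 (SE 1.36, adjusted p = 0.0641), and without that library it was 3.32 (SE 0.38, adjusted p = 0.00395), a call. That of LPS+ tlr4f/f over LPS- tlr4f/f was -4.62 (SE 1.41, adjusted p = 0.121), and without it -5.20 (SE 0.23, adjusted p = 0.00170), again a call. Without that library, 11.1% and 1.21% of all genes were called in these comparisons. The library stood apart by its Cfb count, so these calls are not independent of leaving it out.

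Per kb of transcript, C3 exceeded Cfb in 10 of the 12 libraries. The ratio of C3 to Cfb was 5.004 to 5.82 under LPS+ tlr4f/f and 2.32 to 3.60 under LPS+ tlr4f/f-lysM-cre, so the ranges of these 2 groups did not overlap. It was 2.24, 0.687 and 62.0 under LPS- tlr4f/f and 2.88, 1.52 and 0.743 under LPS- tlr4f/f-lysM-cre. The value of 62.0 belongs to replicate 3, where Cfb had 65 counts.

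C2, the classical pathway counterpart of Cfb, was close to the limit of detection, with 7 to 182 counts per library. Its level was 0.240, 0.653 and 0.169 CPM under LPS- tlr4f/f, 1.53, 1.65 and 5.66 under LPS- tlr4f/f-lysM-cre, 0.210, 0.206 and 0.121 under LPS+ tlr4f/f, and 0.391, 0.740 and 0.265 under LPS+ tlr4f/f-lysM-cre. LPS- tlr4f/f-lysM-cre was again the highest group without overlap. No comparison called C2: the log2 fold change was 3.04 (SE 0.82, edgeR adjusted p = 0.0273) for LPS- tlr4f/f-lysM-cre over LPS- tlr4f/f, 1.38 (SE 0.52, adjusted p = 0.0361) for LPS+ tlr4f/f-lysM-cre over LPS+ tlr4f/f, and -2.66 (SE 0.69, adjusted p = 0.0314) for LPS+ tlr4f/f-lysM-cre over LPS- tlr4f/f-lysM-cre. DESeq2 called the first and the last of these, with adjusted p of 0.000370 and 0.000501.

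Cfp is on the X chromosome (mm10: 20925454 to 20931555, minus strand). Its level was 488, 404 and 40.6 CPM under LPS- tlr4f/f, 676, 557 and 561 under LPS- tlr4f/f-lysM-cre, 173, 179 and 152 under LPS+ tlr4f/f, and 196, 181 and 169 under LPS+ tlr4f/f-lysM-cre. The 2 groups headed LPS+ overlapped and lay below LPS- tlr4f/f-lysM-cre, and replicate 3 of LPS- tlr4f/f was below all other libraries. Cfp fell by 1.71 on the log2 scale (SE 0.13, edgeR adjusted p = 0.00110) in LPS+ tlr4f/f-lysM-cre against LPS- tlr4f/f-lysM-cre. Its adjusted p was 0.0157, 0.0169 and 0.0146 without replicate 1, 2 or 3 of the former group, and 0.0608 with all 12 libraries in a single fit. Between the groups headed LPS+ its log2 fold change was 0.12 (SE 0.071, adjusted p = 0.151), unlike the called differences of C3 and Cfb in that comparison. Without replicate 3 of LPS- tlr4f/f, Cfp was called lower in LPS+ tlr4f/f (-1.40, SE 0.11, adjusted p = 0.00504) and in LPS+ tlr4f/f-lysM-cre (-1.29, SE 0.11, adjusted p = 0.000519) than in the other 2 libraries of LPS- tlr4f/f, where with it the values were -0.88 (SE 0.79) and -0.77 (SE 0.78). Without that library, 1.21% and 15.2% of all genes were called. Cfp was itself lowest in the library left out, so these calls are not independent of leaving it out.

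**Figure D2:**
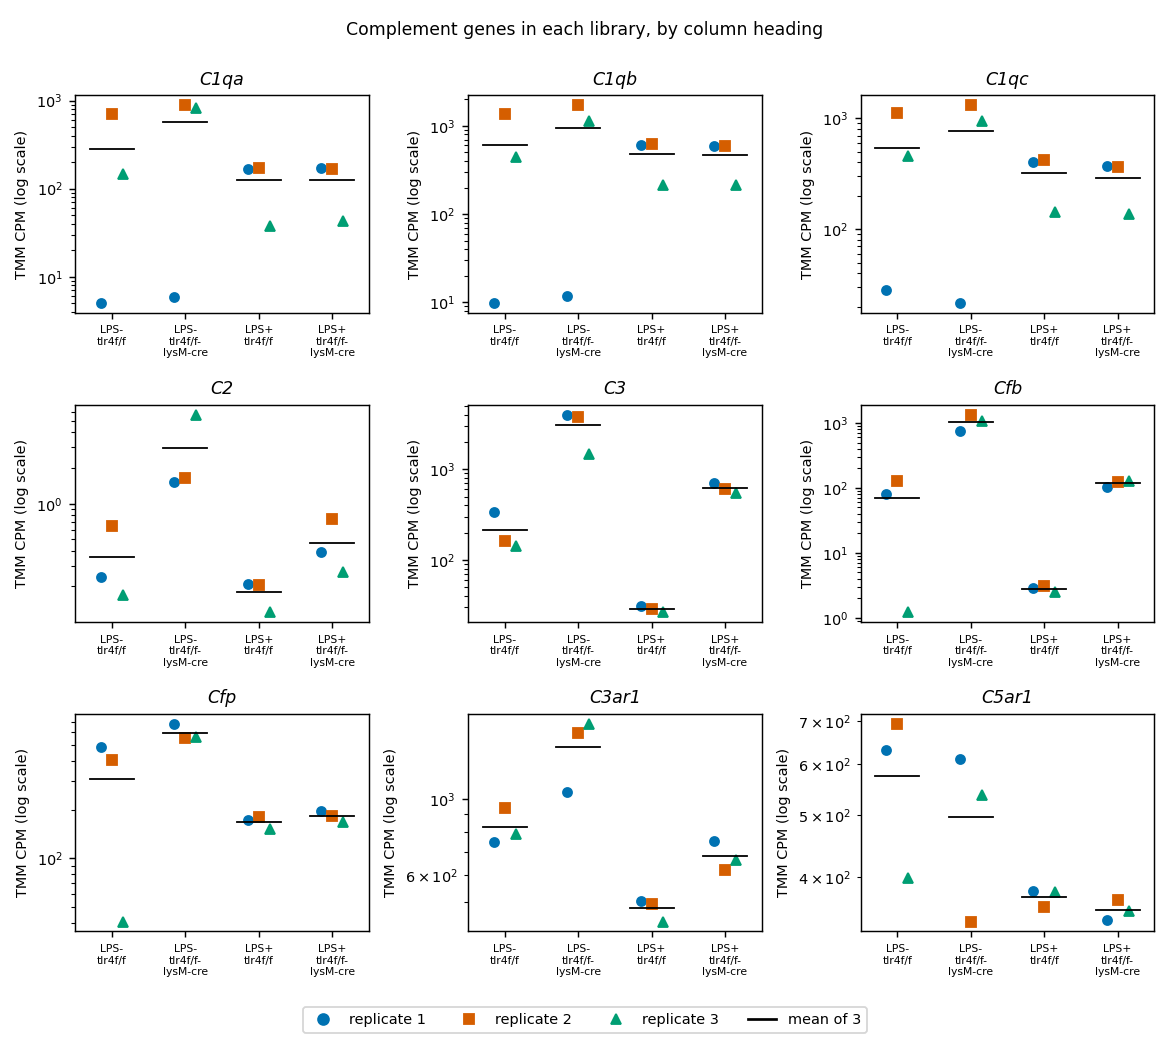
Each panel plots the level of 1 gene in TMM-normalised CPM on a log scale against the column heading, with a point for each library (circle, square and triangle for replicates 1, 2 and 3) and a line at the mean of 3. The groups of C3 do not overlap, from 26.6 CPM under LPS+ tlr4f/f to 4012 under LPS- tlr4f/f-lysM-cre, while the C1q chains are low in replicate 1 of both groups headed LPS-.

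edgeR called neither receptor in any comparison as tested here. C3ar1, the C3a receptor (mm10: chromosome 6, 122847138 to 122856161), had 748, 940.0 and 791 CPM under LPS- tlr4f/f, 1047, 1561 and 1655 under LPS- tlr4f/f-lysM-cre, 504, 494 and 438 under LPS+ tlr4f/f, and 751, 621 and 665 under LPS+ tlr4f/f-lysM-cre. Its groups followed the order of C3 at the top and bottom, with LPS- tlr4f/f-lysM-cre highest and LPS+ tlr4f/f lowest, both without overlap. The log2 fold change was 0.51 in LPS+ tlr4f/f-lysM-cre against LPS+ tlr4f/f (SE 0.076, edgeR adjusted p = 9.06e-05), a difference beyond the spread of the libraries but under 2-fold, so it was not called. It was -1.05 (SE 0.20, adjusted p = 0.0121) in LPS+ tlr4f/f-lysM-cre against LPS- tlr4f/f-lysM-cre, which became a call without replicate 1 of LPS- tlr4f/f-lysM-cre (-1.25, adjusted p = 0.00350), with DESeq2 (7.86e-06), with limma voom (0.00839), without the filter on low counts (0.00567) and with all 12 libraries in a single fit (0.00187). It was 0.77 (SE 0.25, adjusted p = 0.0493) in LPS- tlr4f/f-lysM-cre against LPS- tlr4f/f, and -0.77 (SE 0.13, adjusted p = 0.0531) in LPS+ tlr4f/f against LPS- tlr4f/f.

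C5ar1, the C5a receptor that draws in neutrophils and macrophages (mm10: chromosome 7, 16246743 to 16259540), had 632, 693 and 399 CPM under LPS- tlr4f/f, 611, 341 and 538 under LPS- tlr4f/f-lysM-cre, 380.4, 359 and 379 under LPS+ tlr4f/f, and 343, 368 and 355 under LPS+ tlr4f/f-lysM-cre. LPS- tlr4f/f-lysM-cre overlapped with the other 3 groups. C5ar1 was the steadiest member under both LPS+ headings, with an SD of log2 CPM of 0.046 and 0.051. Its log2 fold change was -0.060 (SE 0.053, edgeR adjusted p = 0.354) in LPS+ tlr4f/f-lysM-cre against LPS+ tlr4f/f and -0.69 (SE 0.21, adjusted p = 0.0436) in LPS+ tlr4f/f-lysM-cre against LPS- tlr4f/f.

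The balance of the 2 receptors, as the ratio of C3ar1 to C5ar1 per kb of transcript, was 0.782, 0.813 and 0.683 under LPS+ tlr4f/f and 1.29, 0.997 and 1.11 under LPS+ tlr4f/f-lysM-cre, without overlap. It was 0.699, 0.801 and 1.17 under LPS- tlr4f/f and 1.01, 2.70 and 1.82 under LPS- tlr4f/f-lysM-cre, which overlapped with each other.

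**Figure D3:**
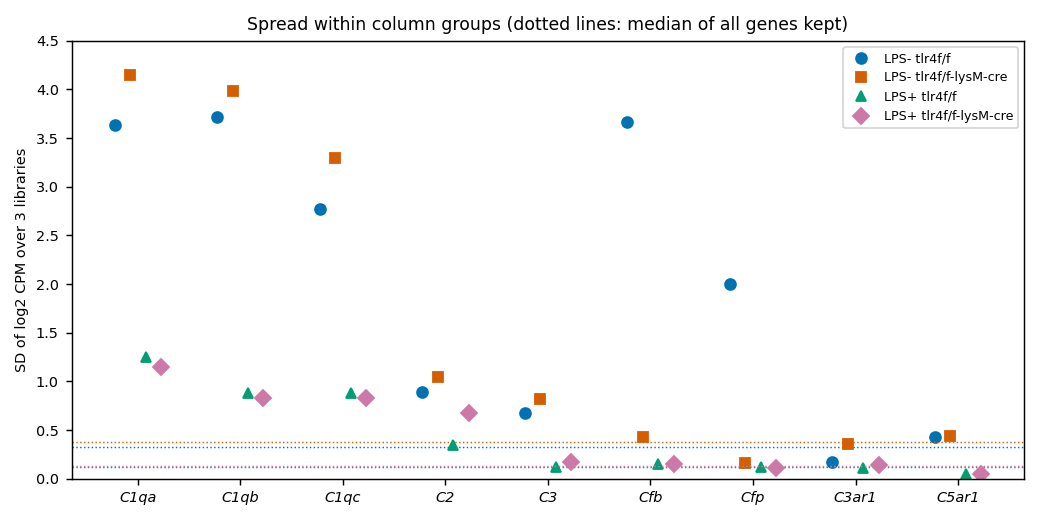
The plot gives, for each gene, the SD of log2 CPM over the 3 libraries of a group, with a symbol for each column heading and dotted lines at the median of 15792 genes in each group. C1qa, C1qb and C1qc lie above the dotted lines under each heading, with values up to 4.14, and Cfb is wide in LPS- tlr4f/f alone, at 3.66.

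Counted over the 9 genes, 2 were called in LPS+ tlr4f/f-lysM-cre against LPS+ tlr4f/f, both higher (C3 and Cfb), where 21.7% of 14552 genes tested were called, 10.8% higher and 10.9% lower. That share of members, 2 of 9, is near the share of all genes. In LPS+ tlr4f/f-lysM-cre against LPS- tlr4f/f-lysM-cre, 3 were called, all lower (C3, Cfb and Cfp), beside 6.08% of 14245 genes called and 3.66% called lower. The median log2 fold change of the members was 0.12 in the first comparison and -1.71 in the second, where the medians of all genes tested were -0.021 and 0.026.

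C3 was the 1 member called, higher, in LPS- tlr4f/f-lysM-cre against LPS- tlr4f/f, beside 17.1% of 14649 genes called and 9.25% called higher, and the median log2 fold change was 0.93 for the members and -0.077 for all genes. In LPS+ tlr4f/f against LPS- tlr4f/f, edgeR called 0 members and 0% of 14713 genes, although 4 members and 3625 genes had an unadjusted p below 0.05. In that comparison DESeq2 called 2 members (C3 and Cfb) and 467 genes, and limma voom 1 member (C3) and 26 genes. The median was -0.88 for the members and -0.035 for all genes. In LPS+ tlr4f/f-lysM-cre against LPS- tlr4f/f, edgeR called 0 members beside 13.4% of 14596 genes. There 2 members and 7306 of all genes had an unadjusted p below 0.05. DESeq2 and limma voom each called 1 member (C3), beside 20.3% and 16.6% of all genes. Comparisons that share a group share its libraries, so these counts are not independent of each other.

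The interaction, the change from LPS- to LPS+ in tlr4f/f-lysM-cre less that in tlr4f/f, has the same value in both readings. edgeR called 0 members and 0.994% of 15792 genes. No member had an unadjusted p below 0.05, while 3691 of all genes did. DESeq2 and limma voom called 0 members too, beside 4.16% and 1.02% of all genes. It was 0.57 (SE 0.54, edgeR adjusted p = 0.580) for C3 and 1.47 (SE 1.35, adjusted p = 0.561) for Cfb on the log2 scale. Without replicate 3 of LPS- tlr4f/f, that of Cfb was 2.07 (SE 0.34, adjusted p = 0.00945) and was called, beside 1.14% of all genes. That library stood apart by its Cfb count, so this call is not independent of leaving it out.

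**Figure D4:**
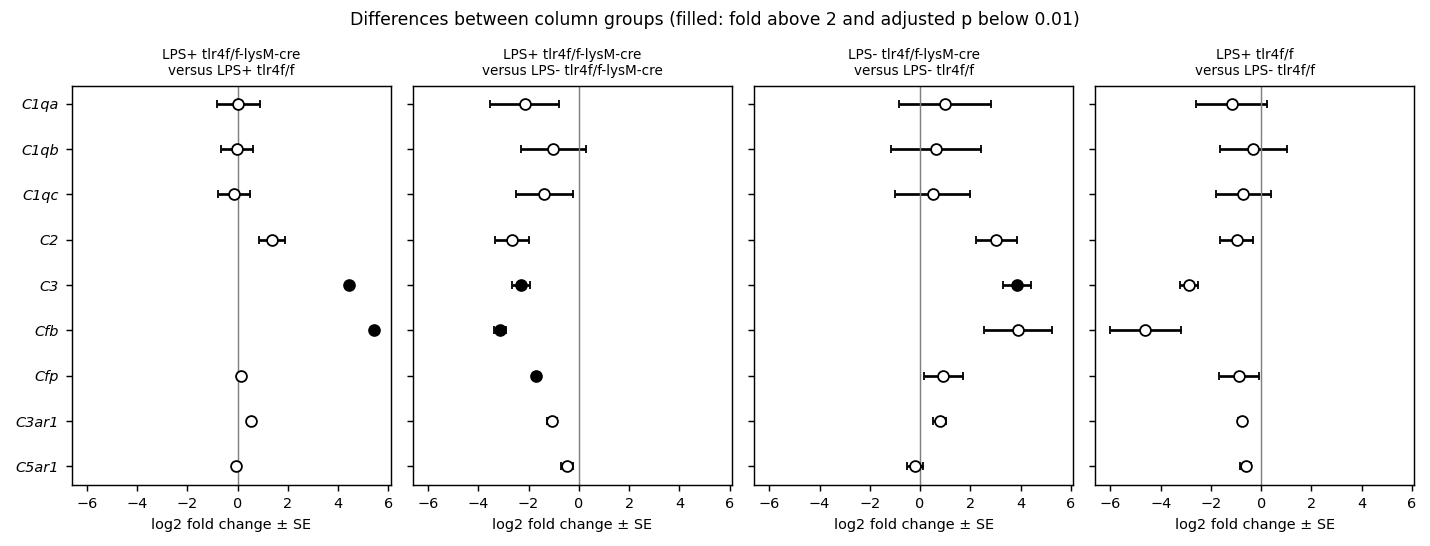
Points give the log2 fold change of each gene and bars its SE in the 4 comparisons of column groups, with filled points for a fold above 2 and an adjusted p below 0.01. C3 and Cfb are filled on the right in the first panel, at 4.43 and 5.41, and C3, Cfb and Cfp on the left in the second, at -2.30, -3.14 and -1.71.

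Of 46 other complement genes listed by role, 26 had enough reads to be tested over the 12 libraries. The terminal components that build the lytic pore were near 0: Hc, C6, C7, C8a, C8b and C9 had at most 6 counts in any library, and C8g, at up to 78, was the exception. The mannose-binding lectins Mbl1 and Mbl2 and the C4b-binding protein gene C4bp had 0 counts in all libraries, which allows up to 3 counts per library, a limit for counting error. Factor D (Cfd) and factor I (Cfi), proteases that activate factor B and inactivate C3b, reached 7 counts and 1 count.

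In LPS+ tlr4f/f-lysM-cre against LPS+ tlr4f/f, 6 of the 22 listed genes tested were called, 4 higher and 2 lower, beside 21.7% of all genes tested, a share near that of the list. Cd55, which speeds the decay of C3 convertases on the own cell surface, had 0.463, 0.309 and 0.139 CPM under LPS+ tlr4f/f and 6.28, 6.50 and 2.06 under LPS+ tlr4f/f-lysM-cre, a rise of 4.05 on the log2 scale (SE 0.61, edgeR adjusted p = 0.00107). The protease of the C1 complex C1ra rose by 1.24 (SE 0.22), its relative C1rl by 2.55 (SE 0.38), and Serping1, the C1 inhibitor, by 1.21 (SE 0.29). C5ar2, the second C5a receptor, fell by 2.64 on the log2 scale (SE 0.21, edgeR adjusted p = 1.28e-06), from 11.9, 11.6 and 15.6 CPM to 2.46, 1.34 and 2.34. Cd93, a surface protein once described as a C1q receptor, fell by 1.34 (SE 0.083). The call of Serping1 was lost without replicate 2 of LPS+ tlr4f/f (adjusted p = 0.0121) and without replicate 3 of LPS+ tlr4f/f-lysM-cre (0.0124), and the other 5 were kept without any 1 library. With all 12 libraries in a single fit the calls of C1ra, C1rl and Serping1 were lost (adjusted p = 0.0131, 0.0175 and 0.313), which leaves 3 of the 6. Cd55 and C1rl had few reads under LPS+ tlr4f/f, 8 to 22 and 8 to 13 counts. With at least 10 counts asked of every library they were not tested, and 4 listed genes were called. The median log2 fold change of the 22 genes was -0.23.

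The integrin chains of the complement receptors, Itgam, Itgax and Itgb2, were among the listed genes with the most reads and were not called in this comparison. C1ra and C1rb, C1s1 and C1s2, and C4a and C4b are pairs of near-identical copies, and their counts are uncertain where reads could be shared. Against LPS- tlr4f/f-lysM-cre, 2 of 24 genes were called in LPS+ tlr4f/f-lysM-cre, both lower, beside 6.08% of all genes: C1ra (-2.56, SE 0.25) and Csmd1, a membrane regulator of C3 cleavage (-4.91, SE 0.80), which had at most 4 counts in LPS+ tlr4f/f-lysM-cre. Both calls were lost without replicate 1, 2 or 3 of LPS+ tlr4f/f-lysM-cre (adjusted p of 0.0185 to 0.0204 for C1ra and 0.0467 to 0.0488 for Csmd1), and that of Csmd1 also without replicate 1 of LPS- tlr4f/f-lysM-cre (0.0115), with all 12 libraries in a single fit (0.0162) and with the replicate number as a block (0.0131). In the same comparison, DESeq2 called 9 listed genes beside 14.1% of all genes, and limma voom 5 beside 6.86%. In LPS- tlr4f/f-lysM-cre against LPS- tlr4f/f, 2 of 25 were called, beside 17.1% of all genes, with C1ra higher by 2.11 (SE 0.37) and C5ar2 lower, at -3.35 (SE 0.46). The call of C1ra was lost whichever of the 6 libraries was left out (adjusted p from 0.0106 to 0.0225), with the replicate block (0.0179) and with summed transcript rows (0.0106), and that of C5ar2 without replicate 3 of LPS- tlr4f/f-lysM-cre (0.0150). In LPS+ tlr4f/f-lysM-cre against LPS- tlr4f/f, C5ar2 (-3.57, SE 0.39) and Cd93 (-1.78, SE 0.31) were called lower, 2 of 23, beside 13.4% of all genes. C5ar2 lost its call without replicate 1 or 3 of LPS+ tlr4f/f-lysM-cre (adjusted p = 0.0103 and 0.0104), and Cd93 without replicate 1 or 2 of LPS- tlr4f/f (0.0165 and 0.0113) and without replicate 1, 2 or 3 of LPS+ tlr4f/f-lysM-cre (0.0314, 0.0344 and 0.0351) and with the replicate block (0.0114).

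In LPS+ tlr4f/f against LPS- tlr4f/f edgeR called 0 of 23 listed genes, 8 with an unadjusted p below 0.05, and for the interaction 0 of 26, none with such a p. DESeq2 called 1 of them in the former and 0 in the latter, and limma voom 0 in both. Over all genes, 3625 and 3691 had such a p, and DESeq2 called 3.17% and 4.16%. For LPS- tlr4f/f-lysM-cre against LPS- tlr4f/f, DESeq2 called 6 listed genes beside 27.3% of all genes, and limma voom 2 beside 18.6%. For LPS+ tlr4f/f-lysM-cre against LPS- tlr4f/f, they called 5 beside 20.3% and 3 beside 16.6%. C1ra, C1s1, C4b, Serping1 and Cd55 had their highest level in replicate 3 of LPS- tlr4f/f-lysM-cre, at 23.1, 7.22, 8.24, 41.9 and 47.0 CPM. That library also had the highest sums of stromal markers, 1772 CPM, and of neutrophil markers, 192 CPM, and C2 was highest there as well. The part of these cells in the levels was not tested.

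**Figure D5:**
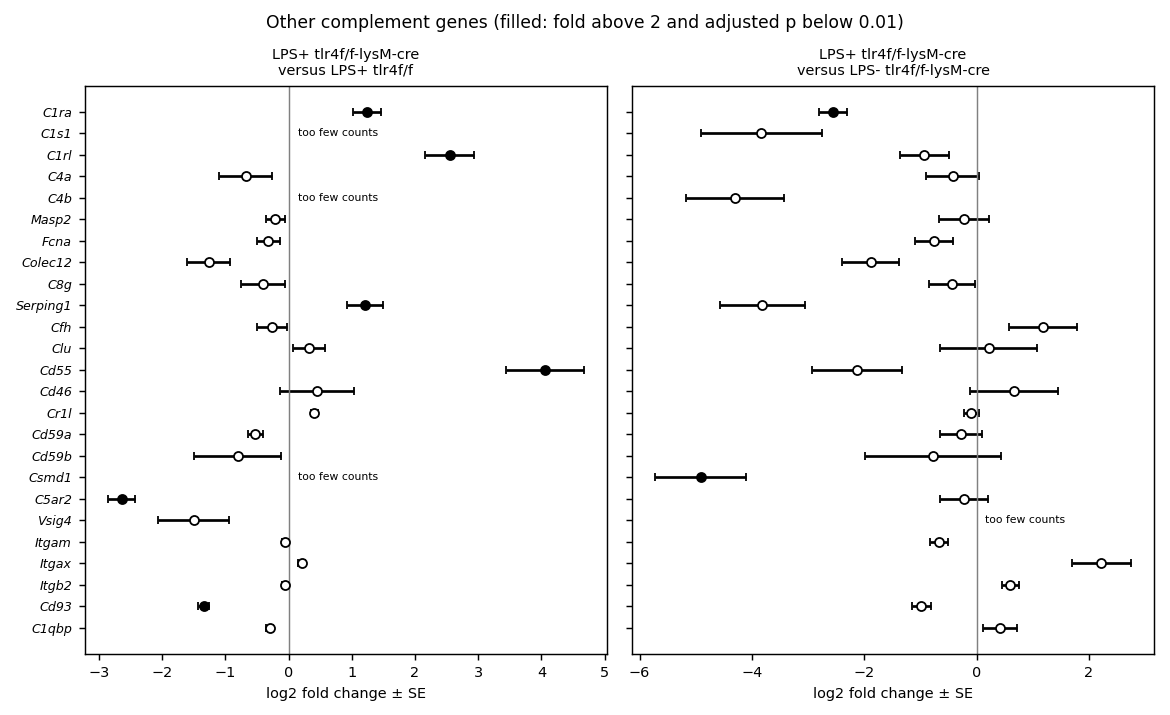
Points give the log2 fold change and bars the SE of the other complement genes in LPS+ tlr4f/f-lysM-cre against LPS+ tlr4f/f (left) and in LPS+ tlr4f/f-lysM-cre against LPS- tlr4f/f-lysM-cre (right), with filled points for a fold above 2 and an adjusted p below 0.01. On the left, Cd55 is highest at 4.05 and C5ar2 lowest at -2.64, and on the right Csmd1 is lowest at -4.91.

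Per kb of transcript, C1qb had the highest and C1qc the second highest mean level of the 9 genes under each heading, and C2 the lowest. This order holds for means and not for each library. C1qb was at 567 ± 644 CPM per kb under LPS- tlr4f/f and 893 ± 813 under LPS- tlr4f/f-lysM-cre. In replicate 1 of these groups the C1q chains summed to 40.7 and 37.1 CPM per kb, below C3ar1 and C5ar1 there. Under LPS+ tlr4f/f the order of means after C1qb and C1qc was C5ar1 at 147 ± 4.66 CPM per kb, C1qa at 116 ± 70.3, C3ar1 at 111 ± 8.27, Cfp at 103 ± 8.61, C3 at 5.62 ± 0.455 and Cfb at 1.02 ± 0.106 (SD, n = 3). Neighbours from C1qb to Cfp in this order had overlapping ranges over the libraries, while C3 and Cfb were apart from them and from each other. Under LPS+ tlr4f/f-lysM-cre, C3 at 121 ± 14.5 CPM per kb stood between C5ar1 and C1qa, and Cfb at 42.9 ± 4.49 below Cfp. Under LPS- tlr4f/f-lysM-cre, C3 had rank 3 at 602 ± 275 and Cfb rank 5 at 381 ± 109, and under LPS- tlr4f/f they had ranks 7 and 8 at 41.6 ± 21.1 and 25.2 ± 23.0.

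Over the 12 libraries, the genes most like each member in log2 CPM were found among 15792 genes, as a description, since the points share 4 groups. By Pearson r, the chains of C1q were among the genes most like each other, with an r of 0.992 (Spearman rho 0.888) for C1qa and C1qc and of 0.967 (rho 0.972) for C1qa and C1qb, although Ly86, the partner of a TLR4-related receptor, came closer to C1qb (r 0.987, rho 0.993). By Spearman rho, Ly86 came first for C1qa too (0.979), and Selplg and Tlr9 (both 0.972) for C1qc, for which C1qb had rank 7 and C1qa rank 16. C3 was most like Srgap2 (r 0.996, rho 0.986), the interferon-induced gene Oasl2 (r 0.995, rho 0.986) and Tgm2, a transglutaminase (r 0.990, rho 0.951). Cfb was most like the acute-phase gene Saa3 (r 0.989, rho 0.937), the chemokine gene Ccl5 (r 0.988, rho 0.937) and Aoah, an enzyme that inactivates LPS (r 0.981, rho 0.888). C3 and Cfb had an r of 0.908 (rho 0.846), and C3 ranked 256 among the genes most like Cfb.

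Of the other members, Cfp was most like Ssc5d (r 0.980, rho 0.902), Lamc1 and Bst1. C3ar1 was most like the protease gene C1ra (r 0.974, rho 0.909), followed by Rnpep and H2-T23. C2 was most like an Ensembl gene without a symbol, Picalm and Gm2666, with r of 0.967, 0.958 and 0.953 on few reads. C5ar1 had the loosest likeness, to Akr1b8 (r 0.898, rho 0.706), Pawr and Dclk1. C1qa and C3 had an r of -0.0030 (rho 0.210).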

How the data were processed

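RNA of 12 BMDM libraries was sequenced as paired reads, and the labels name both polyA RNA and removal of rRNA. Per the labels and the methods, the authors trimmed reads with Trimmomatic 0.36, used HISAT2 for alignment to mm10 and HTSeq for counting, and deposited raw read counts per transcript without normalization. The use of strand in counting is not given in the sources used here. Reads are not independent molecules, so limits on counts cover counting error only.

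From the 115140 transcripts, the row with the highest total was kept for each of 43453 genes, and libraries were grouped by the column headings. The main test was the robust quasi-likelihood test of edgeR 4.0.16 in R 4.3.3, after filterByExpr and TMM, on the 6 libraries compared (all 12 for the interaction), with Benjamini-Hochberg adjustment over all genes tested. SE is the log2 fold change divided by the root of F. A call needed more than 2-fold and an adjusted p under 0.01, as in the study, which used DESeq. Levels are TMM CPM, divided by transcript length in kb where genes are compared. Genes most like a member are the 3 with the highest Pearson r of log2 CPM, computed with a prior count of 2. Alternatives were DESeq2 1.42.0, voom with quality weights of limma 3.58.1, RLE factors, no filter or at least 10 counts in every library, a joint fit of all libraries, a block for the replicate number, an adjusted p under 0.05, summed transcript rows and leaving out each library. The tests were tried on simulated data.

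The text names the 9 members, the listed complement genes, the genes most like a member, and Tlr4, Lyz2, Il1b and marker genes as checks. The members and lists were chosen with earlier results of these data known. Marker lists of B cells, T cells, mast cells and basophils, erythroid cells and dendritic cells summed to at most 6.31 CPM in any library. The dendritic cell sum was 0.262 to 0.566 CPM under LPS- tlr4f/f and 3.15 to 6.31 under LPS- tlr4f/f-lysM-cre. Under LPS+ tlr4f/f it was 0.295 to 0.968, and under LPS+ tlr4f/f-lysM-cre 2.88 to 3.14. Promoters of C1qa, C2 and Cfb were not analysed here.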

Additional observations from a re-analysis of the deposited data

How the results depend on the processing

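Called members kept their direction in the alternatives run. In LPS+ tlr4f/f-lysM-cre against LPS+ tlr4f/f, 2 members were called under each alternative but an adjusted p below 0.05, which added C2. Against LPS- tlr4f/f-lysM-cre, 3 members were called in LPS+ tlr4f/f-lysM-cre, 5 by DESeq2 or at an adjusted p below 0.05, and 0 to 3 without a library. With all 12 libraries in a single fit, Cfb and Cfp were not called there (adjusted p = 0.0405 and 0.0608). Of LPS+ tlr4f/f against LPS- tlr4f/f, 0 members were called, but 1 at an adjusted p below 0.05, 2 by DESeq2, 1 by limma voom, 1 with all libraries in a single fit, and 0 to 2 without a library. Of LPS- tlr4f/f-lysM-cre against LPS- tlr4f/f, 1 member was called, 2 at an adjusted p below 0.05, 3 by DESeq2, 3 with all libraries in a single fit, 0 to 1 without a library and 0 without replicate 1 of both groups, an alternative chosen after seeing the data. Of LPS+ tlr4f/f-lysM-cre against LPS- tlr4f/f, 0 members were called, 1 at an adjusted p below 0.05, 1 by DESeq2, 1 by limma voom and 0 to 1 without a library, and for the interaction 0 and 0 to 1. Over all genes, edgeR called 3165, 866, 0, 2499, 1952 and 157 in these comparisons in the same order, the interaction last. DESeq2 called 2004, 467, 3996, 2966 and 657 in the second to the last, and limma voom 26 in the third. The single fit of all libraries called 2051 in the first, 75 in the third and 4258 in the fourth, the fit without the filter 34 in the third, and without a library the second to the last ran from 4 to 1180, 0 to 184, 1037 to 1683, 593 to 2289 and 10 to 306. Without replicate 1 of both groups the fourth gave 371. Over all genes, the interaction was called higher for 93 and lower for 64 with TMM factors, and for 64 and 80 with RLE factors, and no member changed its call with RLE.

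Values that changed sign were uncalled ones. With limma voom, the log2 fold change of C1qb was 0.081 in LPS+ tlr4f/f-lysM-cre against LPS+ tlr4f/f, those of C1qb and C1qc 1.03 and 0.22 in LPS+ tlr4f/f-lysM-cre against LPS- tlr4f/f-lysM-cre, those of C1qa, C1qb and C1qc 0.33, 1.38 and 0.34 in LPS+ tlr4f/f against LPS- tlr4f/f and 0.46, 1.37 and 0.25 in LPS+ tlr4f/f-lysM-cre against LPS- tlr4f/f, and that of C1qc 0.072 for the interaction. Without a library, C1qa, C1qb and C1qc ran from -0.42 to 0.44, -0.41 to 0.30 and -0.50 to 0.21 in LPS+ tlr4f/f-lysM-cre against LPS+ tlr4f/f. In LPS+ tlr4f/f against LPS- tlr4f/f they ran from -1.74 to 0.74, -0.88 to 1.12 and -1.27 to 0.44, and in LPS+ tlr4f/f-lysM-cre against LPS- tlr4f/f from -1.74 to 0.74, -0.95 to 1.04 and -1.43 to 0.27, with C2 from -0.11 to 1.17. In LPS- tlr4f/f-lysM-cre against LPS- tlr4f/f, C1qb ran from -0.088 to 2.06, C1qc from -0.13 to 1.65 and C5ar1 from -0.43 to 0.0026, and for the interaction from -2.11 to 0.051, -1.79 to 0.0010 and -0.060 to 0.37. The cause of these changes was not tested.

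The main test did not pair libraries by replicate number. Deviations from the group means in same-numbered pairs correlated at 0.472, 0.341 and 0.014 for LPS- tlr4f/f-lysM-cre against LPS- tlr4f/f. For LPS+ tlr4f/f-lysM-cre against LPS+ tlr4f/f they correlated at 0.058, 0.073 and 0.190. In no comparison were all 3 above 0.1. Whether same-numbered libraries share a batch or a mouse was not tested. With the replicate number as a block, 2 members were called in LPS+ tlr4f/f-lysM-cre against LPS+ tlr4f/f and 2 against LPS- tlr4f/f-lysM-cre, where C3 had an adjusted p of 0.0145, and the number of genes called there was 212 in place of 866. C1qb changed sign with the block, to 0.44 in LPS+ tlr4f/f against LPS- tlr4f/f and 0.39 in LPS+ tlr4f/f-lysM-cre against LPS- tlr4f/f. Depth limits C2, with 7 to 182 counts per library.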
